A study of Bubalus bubalis with 8 samples.

Results

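The genes described here copy the DNA, separate the copies in mitosis, or control entry into the cell cycle. The list held 46 of them: 18 replication genes, 25 mitosis genes and 3 regulators of the G1 phase. They were found by the gene name that each probe carries in the array files. Of the 46, 43 had a probe, and MCM2, TOP2A and MKI67 had none. A gene was counted as measured when, on 1 or more of the 7 arrays other than 30 min, the scanner software marked a probe of it as clearly brighter than its background. Probes in a rectangle of the CTR array that read dark were left out. This left 35 measured members among 11687 measured genes, 15 for replication, 18 for mitosis and 2 for G1. CCNE2, CDC6, BUB1, TTK, KIF11, CENPF and CDK1 were dim on those 7 arrays, and CCND2 had its only probe in the rectangle.

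The cells were primary mammary epithelial cells (MECs) from 1 buffalo, used after 10 passages on collagen-treated plates. CTR cells stayed at 37 °C. By the paper's methods, 1 treated plate was held at 42 °C for 1 h, returned to 37 °C and harvested at set times afterwards. The arrays after heat cover 7 times between 30 min and 24 h. The harvest times listed for that plate leave out 16 h. The labels name no plate, so whether all these arrays came from 1 plate or culture is not known. Each of the 8 conditions had 1 array, so no test was possible and no p-value is given. The probes are bovine. The hour at which the CTR cells on the array were harvested is not given in the sources used here, so time in culture and time after heat cannot be told apart. In bulk RNA, fewer cells of a type and less RNA per cell cannot be told apart either.

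A dividing cell copies its DNA in S phase and parts the copies in mitosis. In S phase the MCM helicase opens the double strand with CDC45 and the GINS proteins, the RFC complex loads the PCNA clamp that holds the polymerase on its template, and ribonucleotide reductase and thymidylate synthase supply the building blocks. In mitosis, CDK1 with cyclins A and B, the Polo and Aurora kinases, the spindle checkpoint and the spindle motors act in turn, and many of their genes are transcribed late in the cycle. Cyclin D promotes passage through G1, and CDKN1A (p21), a target of p53, halts it.

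Values are levels on the log2 scale: the processed intensity of a probe relative to the 75th percentile of its array. A change is a level minus the level in CTR. From bright probes with 4 spots each, 17 to 27 of them per array, the error of a change (SD, spots within an array) lay between 0.47 and 0.53, except at 16 h, where it was 0.93. No such error could be had for 30 min, whose values come from a table with 1 value per probe. The 30 min scanner file, used as an alternative alone, had an SD between spots of 2.62. The error holds no spread between cultures. A probe that did not pass the software's mark on an array is called dim there. At 30 min a detection limit, described under processing, took the place of the mark. Dim probes often carried 1 shared floor value per array, such as -2.39 at 16 h and -2.08 at 24 h, so their changes are bounds at best. Levels after heat are listed in order of time.

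The arrays of the 2 slides stood apart. CTR shared a slide with 8 h, 12 h and 24 h, and the other slide held 30 min, 2 h, 4 h and 16 h. Epithelial markers were present throughout: 9 or 10 of 10 were detected on each array, KRT18 being the one that was dim. Their summed level (linear, in units of the array's 75th percentile) was 803 in CTR and between 595 and 668 on the rest of its slide, but 259, 269, 392 and 632 on the other (30 min, 2 h, 4 h and 16 h). The 12 leukocyte markers had a sum between 13.3 and 21.4 on the slide of CTR, but of 259, 209, 20.5 and 44.3 on the other. The 5 milk protein genes summed to between 4.49 and 5.97 on the slide of CTR, where CSN1S1, CSN1S2, CSN3 and LALBA were dim, and to 36.7, 28.4, 536 and 1321 on the other. The 8 measured fibroblast markers summed to between 125 and 186 on the slide of CTR and between 52.8 and 119 on the other. Yet at 16 h COL1A2, LUM, THY1 and FAP, all dim in CTR, were detected and read more than 3-fold higher. The median change of the list was 1.58 there, but -0.90 for the 4 markers detected on both arrays. Both measured endothelial markers were dim on the slide of CTR. On the other, VWF was detected at 30 min, 2 h, 4 h and 16 h, and PECAM1 at 16 h alone. The part of these markers in the members' values was not tested, and the changes at 8 h, 12 h and 24 h, which stay on the slide of CTR, are given first.

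**Figure D1:**
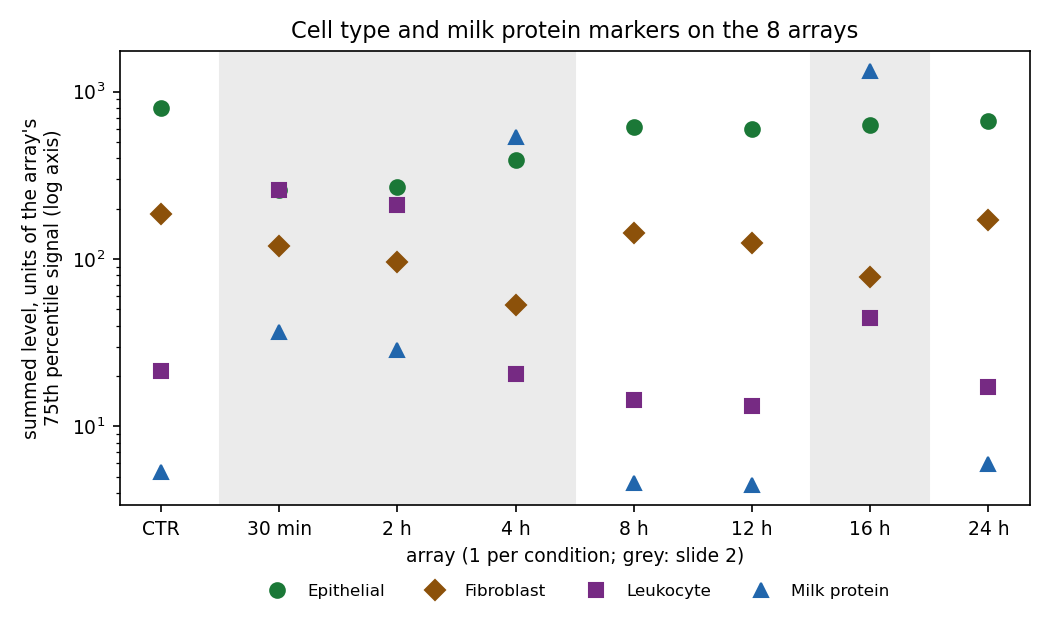
Summed level of the epithelial, fibroblast, leukocyte and milk protein markers on each of the 8 arrays, in units of the array's 75th percentile on a log axis, with the arrays of the second slide in grey. Leukocyte markers stood at 259 and 209 at 30 min and 2 h, and milk protein genes at 536 and 1321 at 4 h and 16 h, against 21.4 and 5.36 in CTR.

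At 8 h, 12 h and 24 h, most genes of both groups read below CTR. Of the 15 replication genes, 14 were lower at all 3 times, MCM3 being the exception, and of the 18 mitosis genes 16 were, with CCNB1 and AURKB the exceptions. All 3 exceptions were dim in CTR. Among all genes, 34.9% were lower at all 3 times. Of the members detected on all 8 arrays, 11 of 11 replication genes and 7 of 7 mitosis genes were lower at all 3 times, beside 41.1% of the 5478 genes so detected.

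The replication genes had median changes of -0.52, -0.64 and -0.80 at 8 h, 12 h and 24 h, where all measured genes had -0.16, -0.30 and -0.06. The mitosis genes had -0.84, -0.996 and -0.77. Relative to all genes, the replication list thus stood at -0.36, -0.35 and -0.73, and the mitosis list at -0.67, -0.70 and -0.71. Such a difference of medians does not depend on how the arrays were scaled to each other. Among genes detected on both arrays, the replication list stood at -0.42, -0.35 and -0.67 relative to such genes, and the mitosis list at -0.76, -1.25 and -0.70, so that the mitosis list was furthest from other genes at 12 h once dim probes were left out.

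A 3-fold change, the criterion of the study, was reached by few members. At 8 h, 3 of 35 (8.57%) were at least 3-fold lower, beside 1.55% of all genes. At 12 h 7 were (20.0%), beside 1.90%, and at 24 h 3 (8.57%), beside 2.31%. No member was 3-fold higher at these times, where 1.33%, 0.864% and 0.771% of all genes were. Restricted to genes detected on both arrays, the members 3-fold lower were RRM2 and CCNA2 at 8 h (2 of 28, beside 0.126% of such genes), those and BUB1B, PLK1, TPX2 and CDKN3 at 12 h (6 of 28, beside 0.507%), and none at 24 h (0 of 24, beside 0.343%). Over the 3 times, 9 members were 3-fold lower at least once, beside 4.77% of all genes, and none was higher, beside 2.13%. The other 3 of those 9 were MCM6, dim at 24 h, and GINS2 and CDCA8, both dim in CTR and given no fold. The calls of PLK1, TPX2 and CDKN3 at 12 h depended on the processing: they were lost with median scaling, with the 75th percentile taken over bright probes and with the local brightness around each probe subtracted. That of BUB1B was lost under both scalings. With normexp background correction, RRM2 and CCNA2 too were no longer 3-fold lower at 8 h, 12 h or 24 h. The members 3-fold lower at 12 h numbered between 0 (normexp background correction) and 8 over the alternatives that kept the 3-fold criterion, and the 9 over the 3 times became 5 with the local brightness subtracted.

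**Figure D2:**
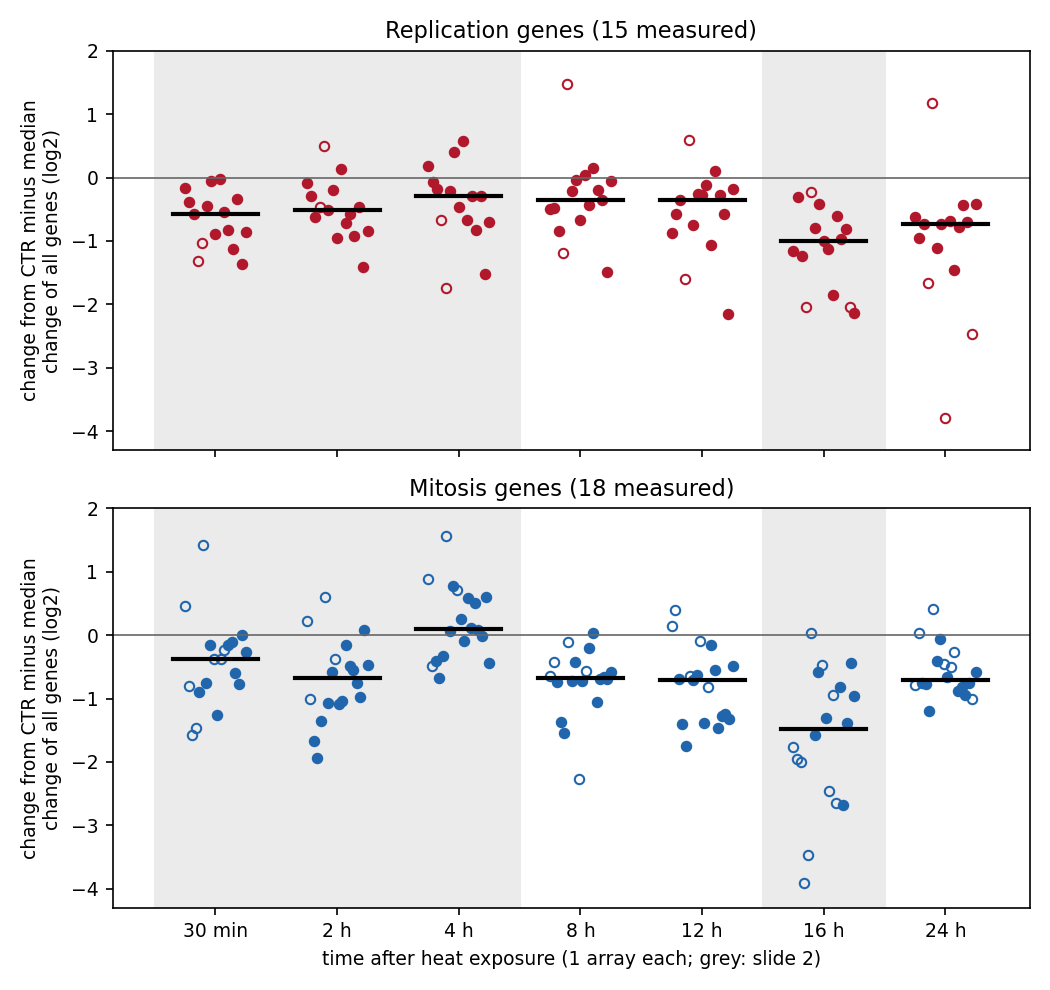
Change from CTR of each measured replication gene and mitosis gene, minus the median change of all measured genes, on the log2 scale against time, with arrays of the second slide in grey. Filled points were detected on both arrays, open points were dim on 1 or both, and bars are list medians. The mitosis median stood at 0.09 at 4 h, at -1.48 at 16 h, and between -0.71 and -0.38 at the other times.

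At the times on the other slide, the comparison with CTR runs across slides. The replication list stood at -0.58, -0.52, -0.29 and -0.999 relative to all genes at 30 min, 2 h, 4 h and 16 h. The mitosis list stood at -0.38, -0.67, 0.09 and -1.48. Among genes detected on both arrays, the replication list stood at -0.60, -0.46, -0.30 and -1.01 relative to such genes. The mitosis list then stood at -0.50, -0.75, 0.06 and -1.15, the last over 8 genes. At 30 min, 4 members (11.4%) were at least 3-fold lower, as were 4 at 2 h (11.4%), and 2 (5.71%) were so at 4 h, beside 12.1%, 11.9% and 7.79% of all genes. For the members, these shares are no higher than those of all genes, unlike those of the further mitosis genes given below at 30 min and 2 h. At 16 h the count was 12 (34.3%), beside 9.59%. Among genes detected on both arrays, the members 3-fold lower were 1 of 25, 4 of 29, 1 of 29 and 3 of 22 (PCNA, TYMS and PRC1) at these 4 times, beside 4.66%, 8.59%, 4.90% and 2.92%. A further 5 at 16 h, RRM2, CCNA2, BUB1B, BIRC5 and NUSAP1, were 3-fold lower as a bound.

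Over all 7 times, 18 of 35 members were 3-fold lower at least once, beside 24.4% of all genes. Without the 4 arrays of the other slide this was 9. Of any size, 20 of 35 members were lower at all 7 times, beside 18.2% of all genes, and 12 of the 20 detected on all 8 arrays, beside 19.8%. CCND1 alone was 3-fold higher at any time, beside 17.6% of all genes. It was so at 4 h and 16 h, where 5.07% and 8.63% of all genes were. At 30 min and 2 h no member was, beside 10.0% and 9.58%.

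Within the other slide, the 4 h array was taken as the base in place of CTR, though the cell type markers differ within that slide too. Relative to all genes, the mitosis list stood at -0.53, -0.84 and -1.48 for 30 min, 2 h and 16 h. All 18 mitosis genes were below their 4 h level at 2 h and again at 16 h. Detected on both arrays were 10 at 30 min, 17 at 2 h and 8 at 16 h. Among such genes the list stood at -0.56, -0.81 and -1.34. The median difference of all genes from 4 h was -0.24 at 2 h and 0.07 at 16 h. Below that median were 17 of the 18 at 2 h and all 18 at 16 h. At 16 h, 6 members (17.1%) read 3-fold or more below 4 h, beside 3.45% of all genes. Of these, PRC1 was detected on both arrays, CCNA2, BUB1B and NUSAP1 were 3-fold lower as a bound, and AURKA and KIF20A were dim at 16 h, where the bound does not reach 3-fold. At 30 min CDKN3 alone was, and at 2 h none was, beside 6.55% and 4.30%. The replication list stood at -0.21, -0.09 and -0.52, nearer to all genes. On the 4 h array, 4 of the 12 leukocyte markers were above CTR, PTPRC and LAPTM5 more than 3-fold, while their sum was not. All 5 milk protein genes were above CTR there. At 30 min, 2 h and 16 h, the leukocyte markers had median differences from 4 h of 4.78, 4.39 and 1.91. Those of the milk protein genes were -4.03, -5.00 and 1.35. Fibroblast markers had -1.19, -0.75 and 2.27, and epithelial markers -0.72, -0.29 and 0.46.

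Several of the lowest members at 16 h lay in darker areas of that array. The local shift of a probe is the median deviation of bright probes within 10 spots of it. At 16 h it was -0.50 or lower for 7 of the 35 members, namely PRC1 (-1.12), MCM7 (-0.92), NUSAP1 (-0.89), CCNA2 (-0.89), TYMS (-0.85), CDC45 (-0.66) and PCNA (-0.59). With the local shift subtracted for every gene, the lists stood at -0.95 for replication and -1.48 for mitosis relative to all genes. Without probes in such areas of CTR, 16 h or 24 h they stood at -0.88 and -1.56. That step kept 29 of the 35 members and 10133 of the 11687 measured genes. At 24 h, MCM6 (-0.69) and CCNB1 (-0.72) lay in a darker area, and on the other 6 arrays no member did.

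**Figure D3:**
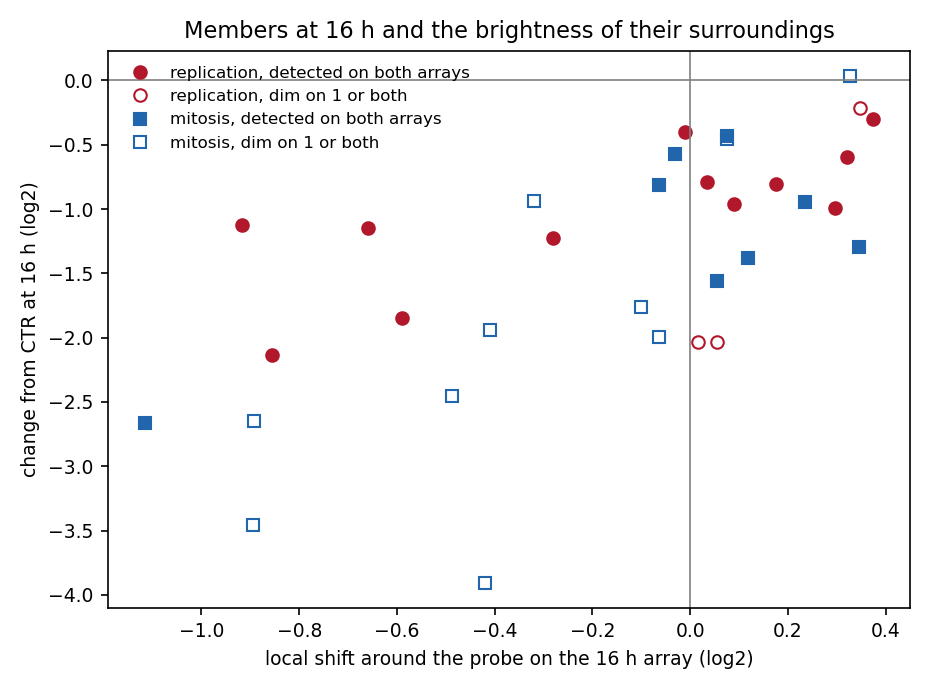
Change from CTR at 16 h of each measured replication and mitosis gene (log2, vertical) against the local shift around its probe on the 16 h array (log2, horizontal). Open symbols were dim on 1 or both arrays. Points to the left lie in darker areas, 7 of them at -0.50 or lower, and most members with shifts near 0 also lie below 0 in change.

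Ribonucleotide reductase makes the deoxynucleotides for replication, and RRM2 is its regulated small subunit. RRM2 had 3 usable probes, and the probes nearest to and furthest from the end of its transcript are shown because RRM2 was the one replication gene detected and 3-fold lower both at 8 h and at 12 h. In the first, 30 of the 60 bases are given, with the polyadenylation signal AATAAA in capitals. Positions are those of the array design, on the bovine build HGSC Btau_3.1.
RRM2 probe at chr11:90263212-90263271, minus strand, in part: ttcagtgatttcAATAAAactgttcttgtg
RRM2 probe at chr11:90265325-90265384, minus strand: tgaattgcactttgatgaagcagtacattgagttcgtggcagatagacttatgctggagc

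By the first of these probes, RRM2 had a level of 1.90 in CTR and then 0.27, 0.24, 0.24, 0.25, -0.54, -0.13 and -0.64, the last pair being dim. Every array after heat lay below CTR, and the 4 arrays up to 8 h were nearly level with each other. It was 3.15-fold and 5.43-fold below CTR at 8 h and 12 h, and 24 h allows a bound of at least 3.94-fold, over 3 times the error at 8 h and 12 h. Over the alternative ways of processing, the median of its changes at 8 h, 12 h and 24 h lay between -2.50 and -1.45. The other probe shown read 1.29 in CTR and then -0.85, -0.77, -0.56, -0.94, -0.37, -2.39 and -0.04, dim at 30 min, 8 h, 16 h and 24 h. At 12 h, where all 3 probes were detected, their mean change was -2.03 ± 0.39 (SD over probes of 1 array). Every probe was below CTR at all 7 times, with 2 of 3 detected at 8 h and none at 24 h.

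RRM1, the large subunit, stood closer to CTR. Its level was 3.71 in CTR and between 2.84 (12 h) and 3.29 (4 h) afterwards, and a second probe was also below CTR throughout. TYMS, thymidylate synthase, read 3.29 in CTR and then 2.15, 2.20, 2.45, 3.07, 2.80, 1.16 and 2.81. On the slide of CTR its changes, -0.22, -0.48 and -0.48, were about the size of the error or smaller, and its lowest value, at 16 h, carries the local shift of -0.85. RRM2 and TYMS thus differed in their course on the slide of CTR.

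PCNA, the sliding clamp, read 3.18 in CTR and then 2.36, 2.22, 2.38, 2.58, 1.82, 1.33 and 1.66. It was below CTR on every array, by 1.51-fold, 2.55-fold and 2.86-fold at 8 h, 12 h and 24 h, the last pair over 2 times the error. A second PCNA probe was detected at 2 h alone and gives no change. RFC4, a subunit of the clamp loader, read 2.52 in CTR and then 1.12, 1.37, 1.56, 2.16, 1.94, 1.56 and 2.03. Its lowest levels were those of the arrays on the other slide, 16 h included, and those at 8 h and 24 h were within the error of CTR. RFC3, of the same complex, had changes of -0.01, -0.19 and -0.85 at 8 h, 12 h and 24 h, and -1.11 at 30 min. FEN1, which trims the flaps of Okazaki fragments, had -0.65, -0.87 and -1.01 at 8 h, 12 h and 24 h.

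Among the genes of the replicative helicase, MCM7 read 3.54 in CTR and then 3.24, 3.43, 3.98, 3.42, 3.12, 2.41 and 2.79. It was above CTR at 4 h, by less than the error, and below it by more than the error at 16 h, with a local shift of -0.92, and at 24 h. MCM4 and MCM5 had changes of -1.18 and -0.80 at 24 h, and the 3 MCM4 probes, all detected there, averaged -1.22 ± 0.40. MCM6 read 1.78 in CTR, with 0.95 and 1.21 at 8 h and 12 h, and was dim at 24 h, at least 3.63-fold below CTR, in the darker area named above. CDC45 had changes of -0.66, -1.16 and -0.68 at 8 h, 12 h and 24 h, and GINS1 -1.01, -0.64 and -0.79. MCM3 was detected on 1 array and GINS2 on 2, so no fold is given for either.

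**Figure D4:**
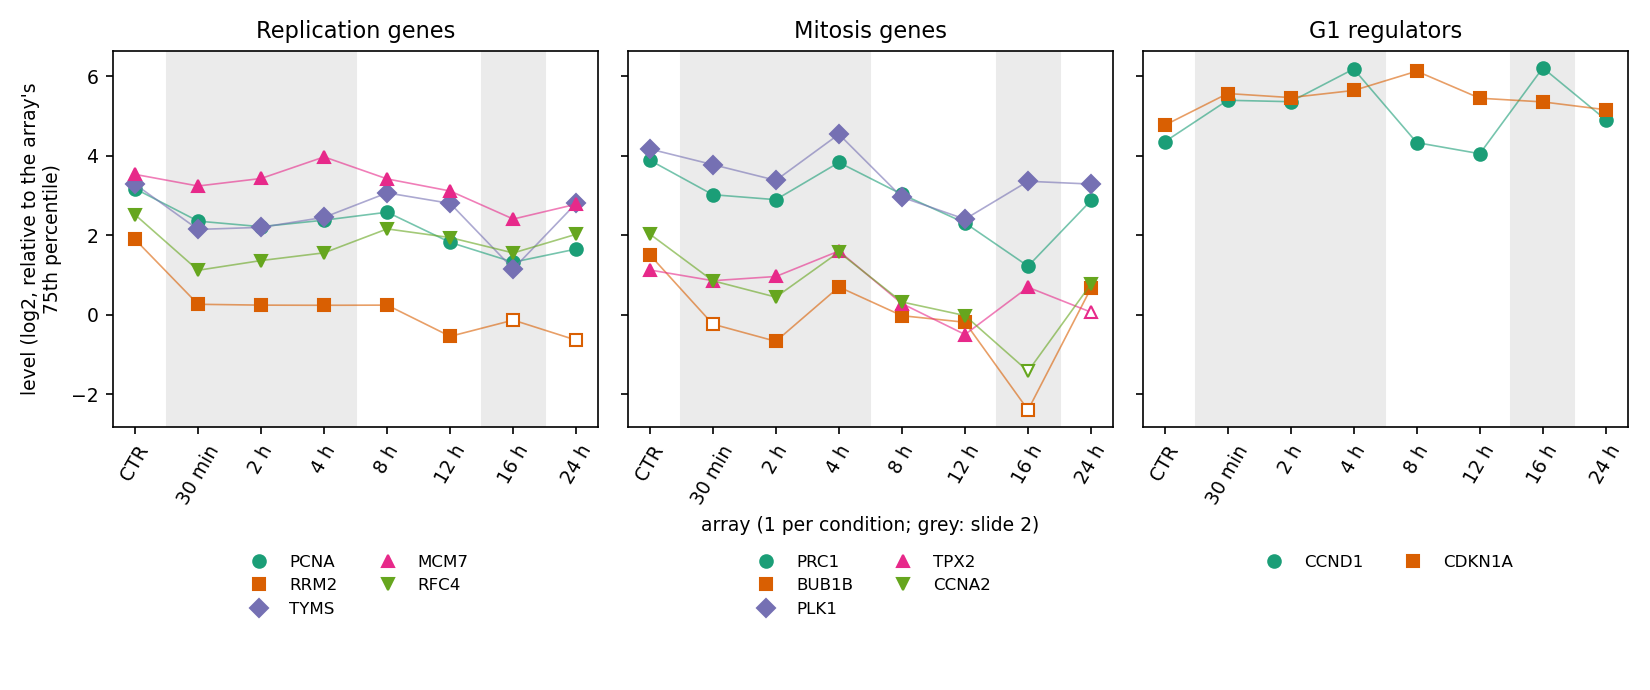
Level (log2, relative to the array's 75th percentile) on the 8 arrays of the replication genes PCNA, RRM2, TYMS, MCM7 and RFC4, the mitosis genes PRC1, BUB1B, PLK1, TPX2 and CCNA2, and the G1 regulators CCND1 and CDKN1A. Open symbols were dim, grey marks the second slide, and lines only join the points of a gene. RRM2 stayed below its CTR level of 1.90 on every other array, and CCND1 was highest at 4 h (6.19) and 16 h (6.22).

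Cyclin A2 (CCNA2) acts in S phase and at the start of mitosis. Its better detected probe read 2.03 in CTR and then 0.86, 0.45, 1.58, 0.32, -0.02, -1.42 and 0.78, dim at 16 h. All 7 arrays were below CTR, 4 h came nearest, and the differences were 3.27-fold, 4.15-fold and 2.38-fold at 8 h, 12 h and 24 h. Over the alternative ways of processing, the median change of CCNA2 at these 3 times lay between -2.46 and -1.26. A probe nearer the start of the gene, shown here because it went the same way, read 0.80 in CTR, with -1.93 and -0.39 at 2 h and 4 h, and was dim elsewhere.
CCNA2 probe at chr6:3385159-3385218, plus strand: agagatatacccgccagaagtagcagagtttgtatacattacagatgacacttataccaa

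Cyclin B2 (CCNB2), a partner of CDK1, had changes of -0.89, -1.01 and -0.48 at 8 h, 12 h and 24 h, and -0.07 at 4 h. CCNB1, the other B-type cyclin measured, was detected at 4 h alone. CDK1 itself had 1 probe, at -1.63 in CTR and then -1.96, -2.97, -3.05, -2.66, -1.82, -2.39 and -2.08. It was dim on every array, and no change can be given. The software had marked it in the 30 min scanner file, whose intensities were not used for its level. CDKN3, a phosphatase that acts on cyclin-dependent kinases, was 3.22-fold below CTR at 12 h.

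BUB1B, a kinase of the spindle checkpoint, read 1.51 in CTR and then -0.23, -0.67, 0.70, -0.02, -0.19, -2.39 and 0.68, dim at 30 min and 16 h. It was 2.89-fold, 3.24-fold and 1.78-fold below CTR at 8 h, 12 h and 24 h, and at least 7.04-fold at 16 h. The probes of BUB1B disagreed at 16 h. A second one, detected in CTR at 0.09, was dim at 16 h as well, while another, dim in CTR at -0.80, was detected at 16 h at 0.43.

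PLK1, the Polo kinase that acts from mitotic entry to cell division, read 4.17 in CTR and then 3.78, 3.39, 4.55, 2.96, 2.41, 3.36 and 3.29. It was 3.40-fold below CTR at 12 h, the lowest change at that time among the 7 mitosis genes detected on all 8 arrays. Unlike CCNA2 and PRC1, it was lower at 12 h than at 16 h, where its local shift was -0.06. AURKA, AURKB and CDCA8 were dim in CTR and detected on 3 arrays each. BIRC5 (survivin), of the chromosomal passenger complex with AURKB and CDCA8, was 1.88-fold, 1.98-fold and 1.77-fold lower at 8 h, 12 h and 24 h.

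PRC1, which bundles microtubules in the midzone of the dividing cell, read 3.89 in CTR and then 3.02, 2.90, 3.84, 3.03, 2.31, 1.23 and 2.88. It was 2.99-fold below CTR at 12 h and level with it at 4 h, and the 16 h value carries the local shift of -1.12. A second PRC1 probe, with a local shift of 0.15 at 16 h, was dim there, at least 3.38-fold below CTR. The spindle assembly factor TPX2 read 1.13 in CTR and then 0.86, 0.97, 1.61, 0.28, -0.49, 0.69 and 0.07, dim at 24 h. It was 3.08-fold below CTR at 12 h, and a brighter TPX2 probe lay in the dark rectangle of CTR and was not used. NUSAP1, a spindle protein, had changes of -0.13, -0.85 and -0.95 at 8 h, 12 h and 24 h, and KIF23, a motor of the midzone, -0.36, -0.45 and -0.33, all within its error.

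Genes around the anaphase-promoting complex were below CTR on its slide. PTTG1 (securin), whose removal frees the chromatids, had changes of -0.82, -1.54 and -0.82 at 8 h, 12 h and 24 h. UBE2C, the ubiquitin-conjugating enzyme of the complex, had -0.74, -0.79 and -0.64, and CDC20, its activator, -0.58, -0.92 and -0.13. The change of PTTG1 at 12 h was over 3 times the error, and that of CDC20 at 24 h was within it. At 4 h CDC20 was above CTR, by 0.64.

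**Figure D5:**
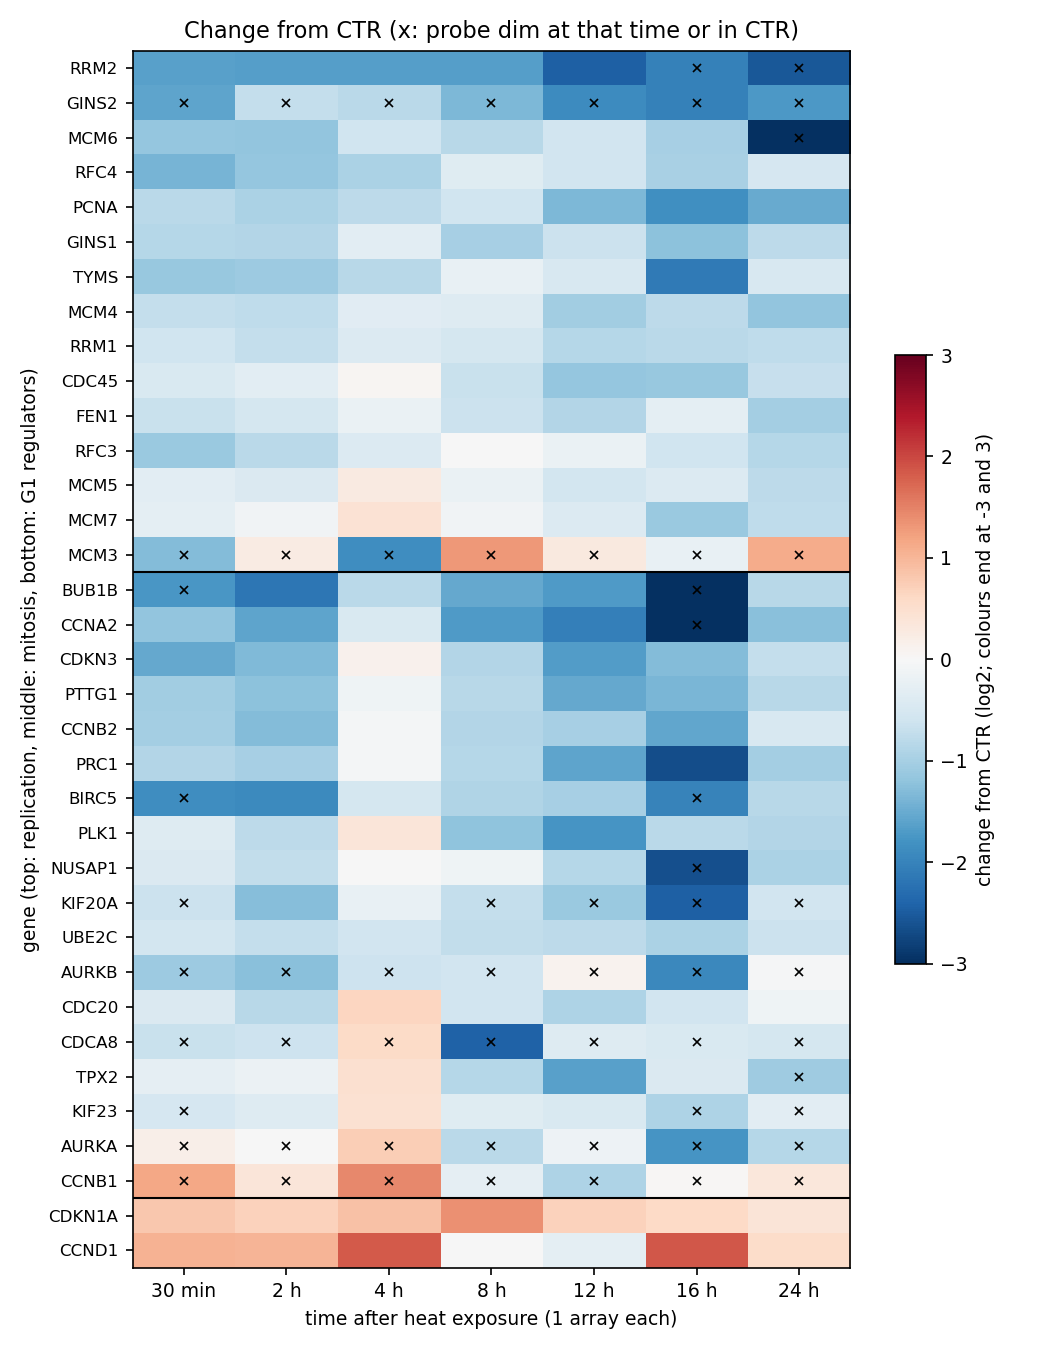
Change from CTR (log2, blue lower and red higher) of the 35 measured members at each time, 1 array each, in the order replication, mitosis and G1 genes, sorted by median change. Crosses mark values whose probe was dim at that time or in CTR. RRM2 is blue at all 7 times, the mitosis genes are palest at 4 h, and CDKN1A is red at all 7.

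Of the G1 regulators, CDKN1A was the only member above CTR on all 7 other arrays, beside 7.39% of all genes and 9.27% of those detected on all 8 arrays. Its probes differed in the early arrays, so both are shown. The probe used holds the polyadenylation signal (capitals, 30 of 60 bases given), and the other lies nearer the start of the gene and has a GC content of 80%.
CDKN1A probe at chr23:10914759-10914818, plus strand, in part: cagcaggtgctcAATAAAtattcctgatga
CDKN1A probe at chr23:10911452-10911511, plus strand: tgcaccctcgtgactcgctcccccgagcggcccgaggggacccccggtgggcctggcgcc

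The first CDKN1A probe read 4.77 in CTR and then 5.57, 5.47, 5.65, 6.13, 5.45, 5.36 and 5.16. It was highest at 8 h, 2.57-fold above CTR, and within the error at 24 h, at 1.31-fold. The second read 2.08 in CTR and then 1.06, 1.97, 2.32, 2.92, 2.18, 3.00 and 2.27. At 30 min and 2 h the second was below CTR where the first was above it. Over both, the mean changes at 8 h, 12 h and 30 min were 1.10 ± 0.37, 0.39 ± 0.41 and -0.11 ± 1.28 (SD over probes of 1 array). The higher level at 8 h was thus read by both probes, and that at 30 min by 1.

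Cyclin D1 (CCND1), which drives passage through G1, divided by slide. Its level was 4.35 in CTR and 4.33, 4.06 and 4.91 on the rest of that slide, against 5.40, 5.36, 6.19 and 6.22 on the other slide. All 4 arrays of the other slide lay above all 4 of the slide of CTR. It was 3.57-fold above CTR at 4 h and 3.64-fold at 16 h, and slide and time cannot be told apart for these values. Cyclin D2 (CCND2) read 7.52, 7.35, 7.52, 7.41, 7.07, 7.83 and 7.13 on the 7 arrays after heat. Its probe lay in the dark rectangle of CTR, so no change from CTR can be given.

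Further genes of the cycle, outside the 46, came from lists of 14 genes of G1/S control, 30 of replication, 38 of mitosis and 23 of growth arrest and p53 targets, of which 8, 25, 30 and 18 were measured. The replication genes had medians of -0.70, -0.75 and -0.95 at 8 h, 12 h and 24 h, the last over 24 genes, and the mitosis genes -0.88, -0.96 and -0.89. The G1/S genes stood nearer to all genes, at -0.34, -0.44 and -0.19. Of the 30 mitosis genes, 28 were below CTR at each of these times, where the medians of all genes were -0.16, -0.30 and -0.06. Below those medians were 25, 26 and 28 of the 30. Of those detected on both arrays, 0 of 19, 2 of 19 and 0 of 17 were 3-fold lower. Of all such genes, 0.126%, 0.507% and 0.343% were, as given above. At 12 h, 2 more were 3-fold lower as a bound. Relative to all genes this list stood at -0.29 at 4 h, nearer than at any other time. Against CTR, 36.7%, 43.3%, 3.33% and 46.7% of these 30 were 3-fold lower at 30 min, 2 h, 4 h and 16 h. For all genes the shares were 12.1%, 11.9%, 7.79% and 9.59%, and for the further replication genes 16.0%, 4.00%, 0.00% and 28.0%. Of the mitosis genes detected on both arrays, 2 of 15, 6 of 20, 1 of 21 and 2 of 13 were. Of all such genes, 4.66%, 8.59%, 4.90% and 2.92% were.

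Of the further replication genes, RPA2, a subunit of the single-strand binding protein, was 3.25-fold lower at 24 h, and RFC5, a clamp loader subunit, 3.62-fold lower at 8 h. POLE2, a subunit of polymerase epsilon, was dim at 8 h, 12 h and 24 h. The kinetochore genes NDC80 and NUF2 were 3.34-fold and 3.85-fold lower at 12 h. With the local shift subtracted, RPA2, RFC5 and NDC80 were 2.40-fold, 2.91-fold and 2.42-fold lower at these times, under the criterion. MYBL2, a transcription factor of cycle genes, had a level of 4.05 in CTR and changes of -2.36, -2.31, -1.48, -0.95, -1.24, -2.09 and -1.39. It was detected and below CTR on all 7 other arrays. ASPM, a spindle pole protein, was detected in CTR and at 4 h alone, and was lower by at least 2.07-fold (8 h) and at least 3.46-fold (12 h). ANLN, ECT2 and SMC2 were dim in CTR.

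Among growth arrest genes, MDM2, the ligase that turns over p53, read 1.71 in CTR and then 2.15, 2.75, 2.28, 3.61, 2.97, 1.77 and 2.62. It was highest at 8 h, at 3.73-fold above CTR. Its probe lay in a darker area of CTR (local shift -0.52), and with the local shift subtracted it was 2.23-fold above CTR at 8 h, still its highest time, and below CTR at 30 min (-0.06) and 16 h (-0.48). BTG2, an antiproliferative p53 target, was above CTR on all 7 arrays, by 2.06-fold, 1.88-fold and 2.13-fold at 8 h, 12 h and 24 h. Its probe too lay in a darker area of CTR (local shift -0.53), and with the local shift subtracted these were 1.40-fold, 1.26-fold and 1.51-fold. The list as a whole stood near CTR, with medians of 0.11, -0.17 and -0.09 at those times. The inhibitor CDKN2C was 1.62-fold lower at 8 h and 4.75-fold lower at 2 h. CDKN1C, another inhibitor, was detected on the 4 arrays of the other slide alone, at least 3.58-fold above CTR on each, and BBC3, a p53 target in cell death, was dim on 5 of the 8 arrays.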

How the data were processed

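Gene expression of buffalo MECs was measured on 8 bovine 4x44K arrays with 1 colour, 1 array per condition. The authors deposited a spot intensity from Feature Extraction 9.5.3.1, background-corrected and not scaled between arrays, and log2 values from GeneSpring, shifted to the 75th percentile and centred on each probe's median. Here log2 of the processed intensity minus the array's 75th percentile was used, with outlier spots left out. The 30 min intensities had an SD between spots of 2.62. Their changes from CTR departed from those of the deposited log2 values by a median of -0.90 over bright probes. For this reason 30 min was taken from the deposited log2 values, each probe shifted by its median offset on the other arrays. A probe was counted as detected at 30 min at the highest detection limit of those arrays. A gene was read by the probe detected on most arrays, then the brightest. A bound sets the bright level against the higher of the dim level and the lowest detected signal of that array. The mean pixel and background intensities were used for normexp (limma 3.58.1, R 4.3.3, offset 50) alone. The steps were tested on simulated arrays. Members and lists were chosen with earlier results of these data known. Genes to be given on every array were CDKN1A, CCND1, CCND2, PCNA, MKI67, CDK1 and, in each group, the 5 with the widest range of level among those detected on at least 4 arrays. Further genes were named when 3-fold from CTR at 8 h, 12 h or 24 h and detected on both arrays, or as the 10 others with the largest median change. Of the member symbols, 45 are in the buffalo RefSeq table (NDDB_SH_1), but none of the probes' accessions.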

Additional observations from a re-analysis of the deposited data

How the results depend on the processing

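No paired analysis was possible because each condition had 1 array and every label carries the same replicate number. Of the alternative values of the list differences, 94 of 99 for replication and 85 of 99 for mitosis were below 0. At 8 h, 16 h and 24 h both lists were below 0 under every alternative run: replication between -0.51 and -0.20, -1.09 and -0.52, and -1.22 and -0.61, mitosis between -0.90 and -0.60, -1.56 and -0.87, and -1.07 and -0.47. Without a filter on dim probes, replication stood at 0, 0.60, 0.92 and 0.13 (30 min, 2 h, 4 h and 12 h), and mitosis at 0.32, 0.20, 1.46 and -0.14. With the 30 min scanner intensities, replication at 30 min was 0.0027. With probes bright on all 7 other arrays, mitosis at 12 h was -1.27. The cause was not tested. The 18 members 3-fold lower at any time became 8 with normexp, 28 with the 30 min scanner intensities, 5 with probes bright on all 7 arrays and 9 without the 30 min, 2 h, 4 h and 16 h arrays. The 9 at 8 h, 12 h or 24 h became 5 with the percentile over bright probes, 2 with normexp, 2 with probes bright on all 7 arrays, 5 with the local shift subtracted and 18 at 2-fold. The 1 member higher at any time became 6 with median scaling, 13 with the 30 min scanner intensities, 3 with the dark rectangle kept, 2 with the local shift subtracted, 4 at 2-fold and 0 without the arrays of the other slide, and the 0 higher at 8 h, 12 h or 24 h became 2 with the rectangle kept and 2 at 2-fold. With the rectangle kept, the median change of TPX2 at 8 h, 12 h and 24 h was 1.76. With probes in dark areas left out, that of PCNA on the other slide was 0.52, read by its other, mostly dim probe. Of 514 values of single genes and counts per time, 457 were held to be the same. For a single gene this meant a move within the error, for which the CTR spots stood in at 30 min. Counts were judged by their ratio to the count of the main processing, not by an error. Dim probes limit the fold of low genes to bounds. Some alternatives were chosen after seeing the data: both on dark areas, the 30 min scanner marks and leaving out the other slide. The promoter search was not run.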
